A study of Mus musculus with 2 samples.

Results

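A set of 10 imprinted genes with roles in growth and in the nervous system was followed through total RNA from mouse cerebral cortex: Peg3, Usp29, Nnat, Blcap, Peg10, Sgce, Grb10, Igf2r, Cdkn1c and Plagl1. They were chosen by gene symbol, and all 10 were found among the 55536 annotated genes of the deposited tables. The tissue, left cerebral cortex, came from male B6CASTF1/J mice at 25 days of age, and each of 2 libraries was made from 300 ng of RNA. B6CASTF1/J mice are first-generation hybrids of C57BL/6J and CAST/EiJ, and the values here are totals over both parental alleles. The libraries, replicate 1 and replicate 2, form 1 group, so no condition was compared and no test was run; each difference below is between 2 libraries. Both carry the same donor entry in the labels, so that they come from separate animals is an assumption, made from their separate biobank numbers, and each SD rests on it.

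An imprinted gene is transcribed mainly from the copy inherited from one parent, according to DNA methylation marks set in the egg or the sperm. Imprinted genes lie in clusters, and many of them act on fetal growth, on placental function and, in the brain, on feeding, maternal care and metabolism. Peg3, Usp29, Nnat, Peg10, Sgce and Plagl1 are known as paternally expressed genes and Cdkn1c as a maternally expressed one. Grb10 is expressed from the maternal copy in most tissues and from the paternal copy in neurons. Igf2r is maternally expressed in most mouse tissues, with both copies active in neurons. Which parental allele was active was not analysed here.

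Of these genes, 6 form 3 neighbouring pairs with opposite orientations. Peg3 (chromosome 7, 6703892 to 6730431, minus strand, mm10) and Usp29 (chromosome 7, 6730578 to 6967219, plus strand) are transcribed away from each other, with 146 bases between the annotated genes. Sgce (chromosome 6, 4674350 to 4747207, minus strand) and Peg10 (chromosome 6, 4747306 to 4760517, plus strand) are arranged in the same way, 98 bases apart. Nnat (chromosome 2, 157560078 to 157562522, plus strand) lies wholly within Blcap (chromosome 2, 157556362 to 157571274, minus strand), and the annotated exons of the 2 genes share 0 bases. The other 4 genes are Grb10 (chromosome 11, 11930508 to 12038683, minus strand), Igf2r (chromosome 17, 12682406 to 12769664, minus strand), Cdkn1c (chromosome 7, 143458339 to 143461050, minus strand) and Plagl1 (chromosome 10, 13060504 to 13131694, plus strand).

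**Figure D1:**
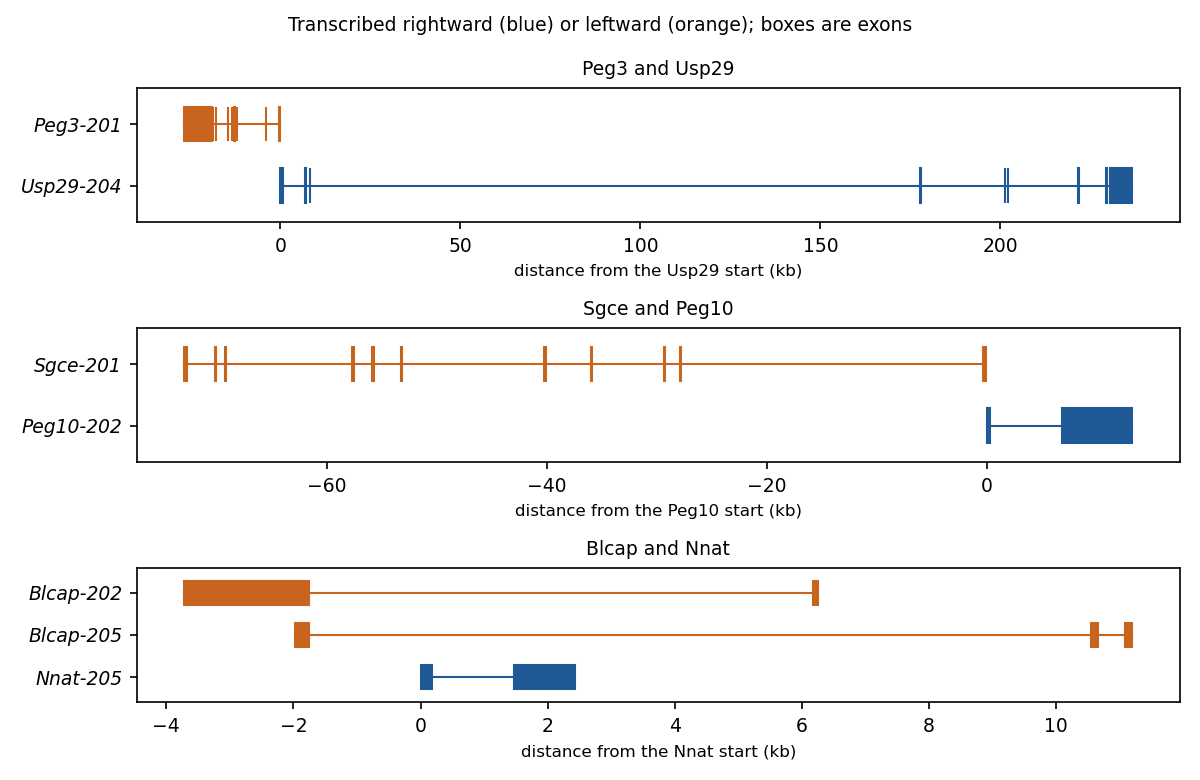
Exons of leading transcripts of the 3 neighbouring pairs, drawn by distance in kb from the start of Usp29, Peg10 or Nnat. Peg3 and Usp29, and Sgce and Peg10, point away from each other, and Nnat sits between the exons of Blcap on the other strand.

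The sequences that bear most on these genes are the stretch that separates Peg3 from Usp29, the bases upstream of 2 starts of Grb10, and the small coding exons by which the forms of Nnat and Sgce differ. RefSeq promoter windows of 300 bases on GRCm38.p6 were matched for 7 of the 10 genes, with 2 windows for Grb10. The windows of Peg3 and Usp29 share 263 bases, and 163 bases lie between the 2 RefSeq starts. That interval (chr7:6730420-6730582, plus strand) is shown because it is upstream of both genes at once. Capitals mark the motif CCAAT, known as the CCAAT box.

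Peg3-Usp29 interval: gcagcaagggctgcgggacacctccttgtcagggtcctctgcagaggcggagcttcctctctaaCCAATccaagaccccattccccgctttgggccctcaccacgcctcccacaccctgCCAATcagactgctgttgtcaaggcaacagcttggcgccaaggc

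The interval held 2 CCAAT motifs and 5 CpG dinucleotides. CCAAT, read on both strands, occurs in 37.41% of all 32851 promoter windows of this length, so its presence is common. The palindrome TGACGTCA, the consensus cAMP response element, was in the windows of both Peg3 and Usp29 and in 1.79% of all windows. It lies outside the printed interval, 7 bases past the RefSeq start of Usp29. The GC box GGGCGG (35.66% of windows) and the YY1 motif AAGATGGC (2.75% of windows) were in neither window.

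Grb10 has several annotated starts, and the 250 bases before 2 of them differ in base composition. CpG dinucleotides, at which DNA can be methylated, are in capitals. Methylation was not measured here, and whether either stretch carries an imprint mark was not tested. The first stretch (chr11:12037421-12037670, minus strand) precedes the distal start and the second (chr11:12027972-12028221, minus strand) precedes the middle start.

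Grb10 distal: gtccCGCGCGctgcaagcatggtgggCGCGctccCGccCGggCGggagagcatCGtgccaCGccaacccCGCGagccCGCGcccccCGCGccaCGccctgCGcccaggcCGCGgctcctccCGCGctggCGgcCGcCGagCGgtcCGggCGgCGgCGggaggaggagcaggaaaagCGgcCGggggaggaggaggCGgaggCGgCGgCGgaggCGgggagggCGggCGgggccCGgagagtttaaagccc
Grb10 middle: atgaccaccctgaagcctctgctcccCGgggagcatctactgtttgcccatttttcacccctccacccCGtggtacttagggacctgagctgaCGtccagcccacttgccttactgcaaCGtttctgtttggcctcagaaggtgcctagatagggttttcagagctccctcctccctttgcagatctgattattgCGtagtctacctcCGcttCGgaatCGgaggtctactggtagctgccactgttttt

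The distal stretch held 40 CpG and was 81.2% G or C, and the middle stretch held 8 CpG and was 54.0% G or C. Over the whole windows, the distal Grb10 start, with 45 CpG, had more than 98.07% of all promoter windows. The windows of Igf2r and Plagl1 held 34 and 26 CpG, those of Nnat, Blcap and Usp29 held 17 each, and that of Peg3 held 13. The median over all windows was 7.

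The middle exon of Nnat (chr2:157561213-157561293) has 81 bases, all of them coding, and its first 27 bases, in capitals, are the whole middle exon of a shorter annotated form. An Sgce exon of 27 coding bases (chr6:4690469-4690495, minus strand) and another of 35 (chr6:4677163-4677197, minus strand) are each in some annotated transcripts and not in others.

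Nnat middle exon: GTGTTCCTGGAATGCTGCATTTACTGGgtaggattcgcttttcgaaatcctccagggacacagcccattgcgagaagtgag
Sgce small exon: ggaaaagagagacatgcaaaccccaga
Sgce late exon: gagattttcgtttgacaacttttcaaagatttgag

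Levels are given in TPM, a unit in which reads are divided by transcript length and scaled to the library, from the deposited gene table. A gene was called detected at 1 TPM or more in both libraries, and all 10 genes were. Nnat was the most abundant, at 114.0 ± 19.5 TPM (SD, n = 2 here and below), and ranked 845th of the 55536 genes by mean TPM. Peg3 followed at 90.1 ± 2.87 TPM and Blcap at 47.6 ± 2.11. Usp29 was at 16.5 ± 2.14 TPM, Sgce at 14.8 ± 0.46, Grb10 at 14.1 ± 1.73, Igf2r at 12.7 ± 0.27 and Plagl1 at 8.69 ± 3.16. Cdkn1c, at 5.12 ± 0.21, and Peg10, at 5.11 ± 0.50, were the lowest, above 80.52% and 80.51% of genes. In this order the values of 3 neighbouring pairs overlapped between libraries: Usp29 with Sgce, Sgce with Grb10, and Cdkn1c with Peg10. The second transcript table, made by another quantifier, put the 10 genes in the same order. Its gene sums were higher for all 10, by 1.39-fold for Grb10 to 2.07-fold for Nnat with a median of 1.57-fold, and the median over 14744 detected genes was also 1.57-fold.

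**Figure D2:**
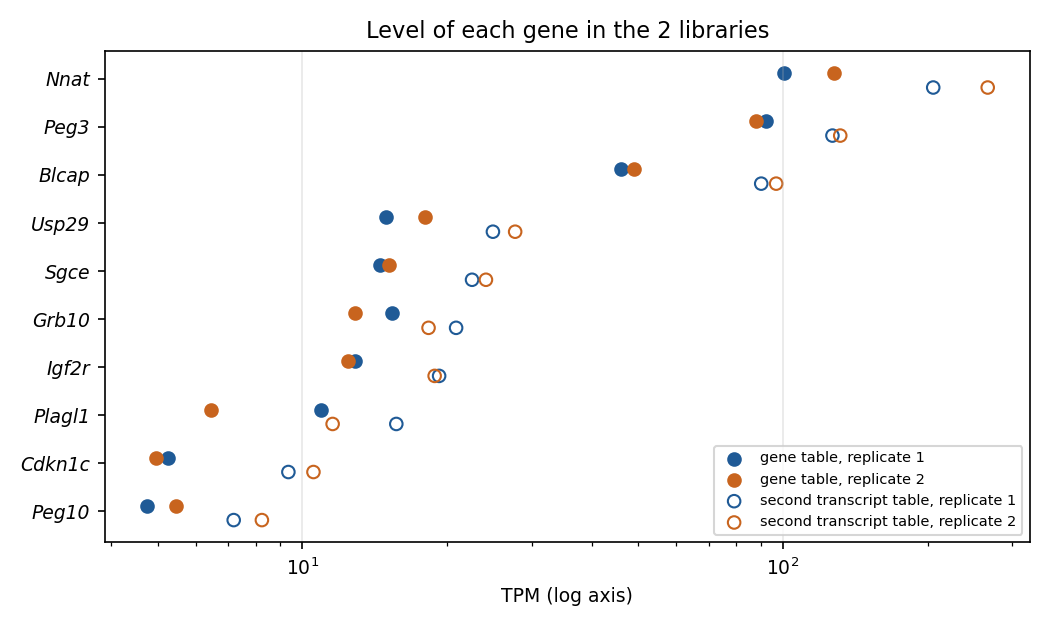
TPM of the 10 genes on a log axis in replicate 1 (blue) and replicate 2 (orange), from the gene table (filled) and the second transcript table (open). Nnat, Peg3 and Blcap lie above the other 7 genes, which are under 20 TPM in the gene table.

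The libraries held 30372235 and 33134266 expected counts in annotated genes. Markers of cortical neurons were present and those of some other cell types differed between the libraries: all 5 pan-neuronal and all 4 glutamatergic markers were detected, the latter summing to 3025 and 2886 TPM in replicates 1 and 2. The 5 choroid plexus markers summed to 22.0 and 199 TPM, mostly Ttr (19.5 and 192), the 5 markers of mature oligodendrocytes to 579 and 771, and the 3 of red blood cells to 715 and 482. Of 5 hypothalamic markers, 0 reached 1 TPM in both libraries, and they summed to 1.62 and 7.0 TPM. Avp was at 0.45 and 5.90 and Oxt at 0.65 and 0.96. The others were lower in replicate 2: Pmch at 0.23 and 0.14, Agrp at 0.17 and 0.0, and Hcrt at 0.12 and 0.0. In bulk tissue, fewer cells of a type and less RNA per cell cannot be told apart.

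Between the libraries, 1 of the 10 genes, Nnat, was over 25% higher in replicate 2 than in replicate 1 on TPM + 0.5, as were 5.40% of the 18136 genes averaging 10 or more expected counts. Another, Plagl1, was over 25% higher in replicate 1, as were 8.94% of those genes. By counts scaled with TMM, a factor that sets most genes level between libraries, the 95% counting interval of the log2 difference lay above 0 for Usp29, Nnat, Blcap and Peg10, 4 of the 10, against 11.0% of all genes. It lay below 0 for Peg3, 1 of the 10, against 10.6%. The 10 genes are deeply counted, and 25.7% of the 12605 genes averaging 100 or more counts had an interval that left out 0 in either direction. Of the same 12605 genes, 6.92% were over 25% apart by TPM + 0.5 in either direction. The median log2 difference of the 10 genes was 0.01 by TPM and 0.11 by scaled counts, beside -0.03 and 0.01 over all genes tested. These intervals cover counting error only, not the spread between animals.

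**Figure D3:**
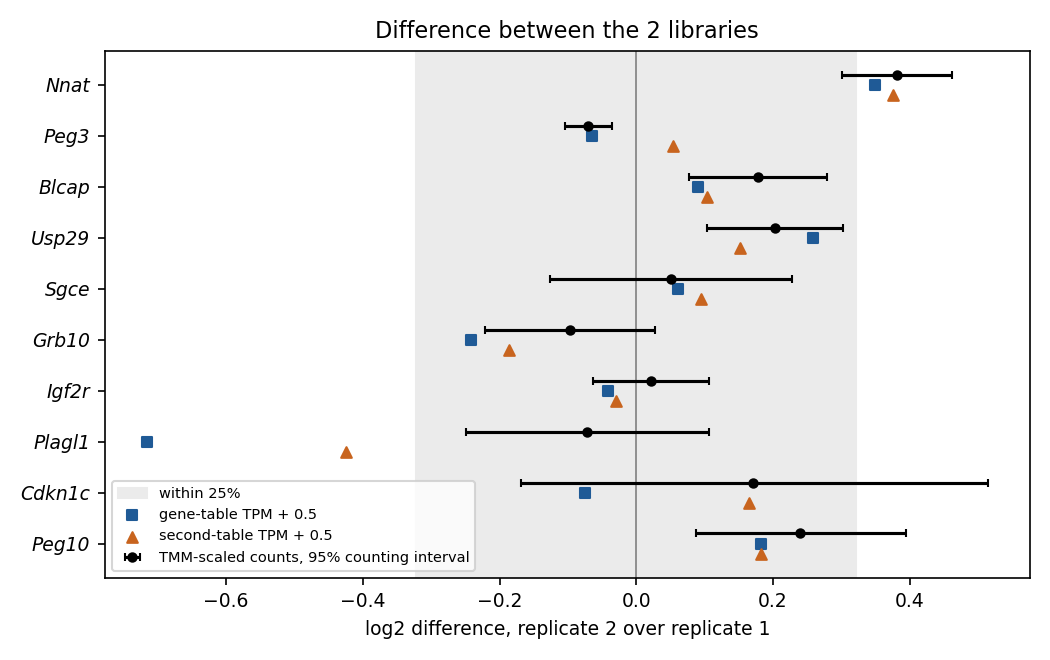
Log2 difference of each gene, replicate 2 over replicate 1, by TMM-scaled counts with 95% counting intervals (black), gene-table TPM (blue squares) and second-table TPM (orange triangles). The 3 measures of Nnat lie together to the right of the grey band (within 25%), while those of Plagl1 part, with the count difference near 0.

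Peg3 encodes a large zinc finger protein and is known for its part in maternal behaviour and in growth. It had 92.1 and 88.0 TPM in replicates 1 and 2, from 13757 and 14280 counts, the most of the 10 genes. Replicate 2 was slightly the lower by the gene table, and by scaled counts the difference was -0.07 on the log2 scale (interval -0.10 to -0.04). In the second table replicate 2 was slightly the higher, at 131 against 127 TPM. The full-length coding transcript Peg3-201 (8694 bases, 4713 of them coding) took 77.8% and 77.0% of the gene's TPM, and 82.3% and 76.1% in the second table. A transcript with a retained intron, Peg3-204, took 9.58% and 8.07%, or 10.3% and 8.05% by the second table. The pair of transcripts annotated for nonsense-mediated decay together took 12.6% and 15.0%, or 7.40% and 15.9% by the second table.

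Usp29 encodes a ubiquitin-specific protease and spans 236642 bases, beside 26540 for Peg3. It had 15.0 and 18.0 TPM, from 1459 and 1830 counts, and was the higher in replicate 2 by each measure, with a scaled count difference of 0.20 (interval 0.10 to 0.30). Of its transcripts, 3 passed the rule for naming, a share of at least 5% in both libraries in either table. The longest, Usp29-204, took 50.7% and 45.1%, and Usp29-202, which has 595 coding bases, took 34.96% and 33.6%. In the second table they took 43.7% and 41.5%, and 30.6% and 29.6%. Usp29-201, with 2607 coding bases as in Usp29-204 but no other exon, took 0.07% in replicate 1 and 11.1% in replicate 2; in the second table it took 9.45% and 13.4%. Peg3 exceeded Usp29 by 6.16-fold in replicate 1 and 4.89-fold in replicate 2, a mean log2 ratio of 2.46 ± 0.23. The antisense gene Zim3, whose exons share 2582 bases with those of Usp29, was listed at 0 counts in both libraries.

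Nnat encodes neuronatin, a small membrane protein of the endoplasmic reticulum that is abundant in the developing brain and resembles the calcium pump regulators phospholamban and sarcolipin. It had 100.2 TPM in replicate 1 and 127.8 in replicate 2, from 2131 and 3026 counts. Replicate 2 was 1.27-fold the higher on TPM + 0.5, a log2 difference of 0.35, and the scaled count difference was 0.38 (interval 0.30 to 0.46). In the second table the values were 205 and 266 TPM, a log2 difference of 0.38. The choroid plexus and oligodendrocyte markers above were higher in the same library; their part in the difference of Nnat, and in those of Usp29, Blcap and Peg10, was not tested.

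The 2 transcript tables gave opposite accounts of which Nnat form was present. The known alpha form, Nnat-202, holds the whole middle exon and has 243 coding bases, or 81 codons; the beta form, Nnat-205, skips that exon and has 162, or 54 codons. In the first table Nnat-202 took 47.8% and 37.9% and Nnat-205 took 42.1% and 55.3%. In TPM, Nnat-202 was nearly level at 47.9 and 48.4, and Nnat-205 was at 42.2 and 70.7. The second table gave Nnat-202 3.15% and 0.04% and Nnat-205 0.02% and 0.00%. It placed 63.7% and 69.1% on Nnat-210, which keeps only the 27 bases shown in capitals and has 189 coding bases, or 63 codons; the first table gave that transcript 1.22% and 0.71%.

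Among Nnat transcripts spliced from a first exon, across the middle exon's place, to the last exon, the first table had the exon skipped in 45.0% and 58.2% and whole in 49.5% and 39.1%. The second table had it skipped in 0.03% and 0.00%, whole in 13.3% and 7.34%, and shortened to 27 bases in 82.6% and 90.4%. The second table also gave a transcript with a retained intron, Nnat-203, 20.97% and 22.0%, where the first gave it 2.16% and 2.45%, and gave Nnat-207, with 237 coding bases, 7.09% and 5.57%, where the first gave it 0. The difference between the tables was larger than that between the libraries, so these values do not give the ratio of alpha to beta form. The gene's total, by contrast, was higher in replicate 2 in both tables.

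**Figure D4:**
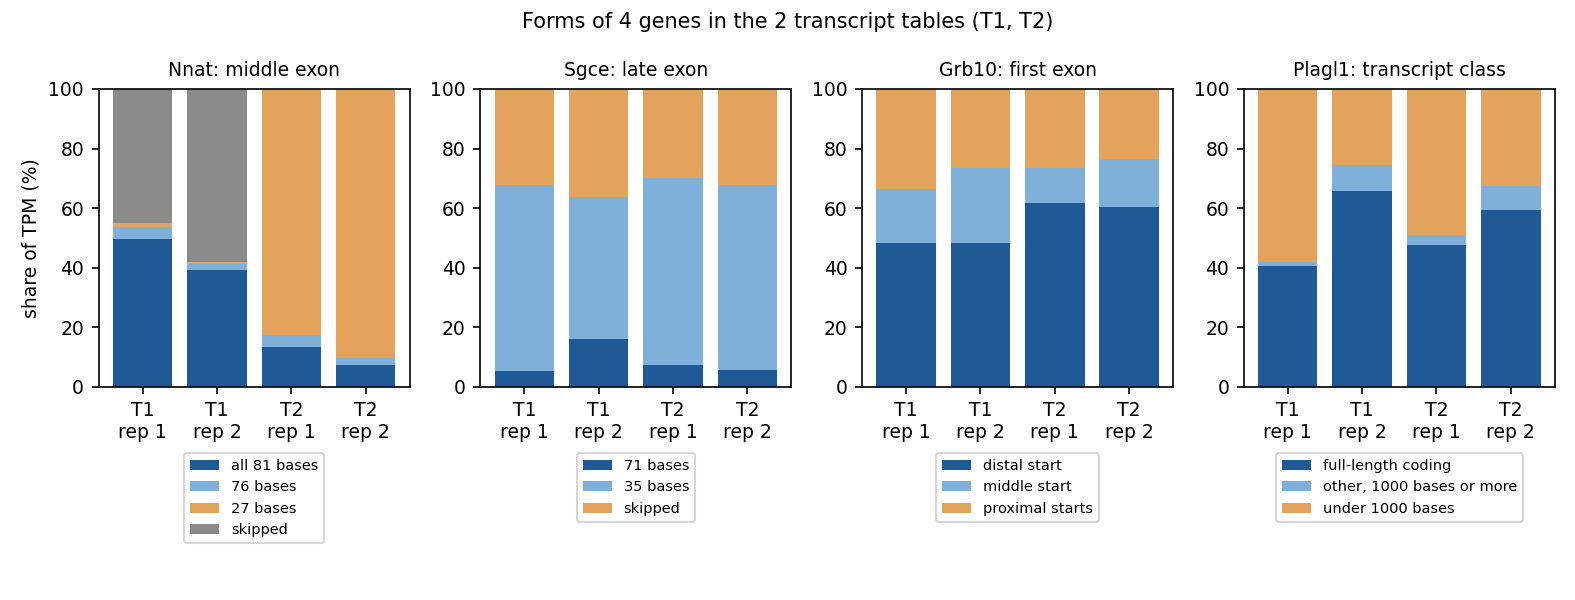
Share of TPM by form for 4 genes, as stacked bars for the first (T1) and second (T2) transcript table in each library. For Nnat the tables differ, with the exon skipped in 45.0% and 58.2% in the first and in 0.03% and 0.00% in the second, while for Grb10 the distal start leads in all 4 bars.

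Blcap encodes a small membrane protein first described in bladder cancer, and in brain its transcripts are known to be imprinted according to their start. It had 46.1 and 49.1 TPM, from 1440 and 1775 counts, and its scaled count difference was 0.18 (interval 0.08 to 0.28). Nnat exceeded Blcap by 2.18-fold in replicate 1 and 2.61-fold in replicate 2, log2 ratios of 1.12 and 1.38 with an SD of 0.18. In the first table Blcap-202 took 73.6% and 77.6%, Blcap-201 took 2.32% and 1.57%, and Blcap-205 was listed at 0. In the second table those transcripts took 31.8% and 19.5%, 28.9% and 41.6%, and 28.8% and 34.6%. Blcap-205 begins at the farthest upstream annotated start, 157571274, so the tables also differed on use of that start; in the second table its share rested on 57.5 and 83.7 counts. The noncoding transcripts Blcap-203 and Blcap-204 took 12.4% and 11.3%, and 11.7% and 9.56%, in the first table, and 0.98% and 0.82%, and 9.49% and 3.47%, in the second.

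Peg10 derives from a retrotransposon, retains gag-like and pol-like reading frames, and is required for the placenta. It had 4.75 and 5.46 TPM, from 620 and 798 counts, with a scaled count difference of 0.24 (interval 0.09 to 0.39). Both of its abundant transcripts have the same exons but for the start, which in Peg10-202 lies 100 bases upstream of that of Peg10-203; the annotation gives them 1128 and 1812 coding bases. The first table placed 86.1% and 80.2% on Peg10-203, and the second placed 98.7% and 77.5% on Peg10-202. Of the 6 listed genes also derived from retroelement gag sequences, all were detected, and Rtl8a (136 and 129 TPM), Arc (167 and 82.2) and Rtl8b (109 and 111) were the highest. Arc, a gene induced by neuronal activity, was the one of the 6 over 25% apart by TPM, lower in replicate 2 by a scaled count difference of -0.99 (interval -1.03 to -0.94). Rtl8a and Rtl8b have fractional expected counts, so reads were divided between near-identical copies and their separate levels are uncertain.

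Sgce encodes epsilon-sarcoglycan, a membrane protein whose human counterpart is mutated in myoclonus-dystonia. It had 14.5 and 15.2 TPM, from 497 and 561 counts, and its interval held 0 (-0.13 to 0.23). Sgce exceeded Peg10 by 3.06-fold in replicate 1 and 2.78-fold in replicate 2, a mean log2 ratio of 1.54 ± 0.10. Coding transcripts took 88.4% and 88.8% of its TPM, and Sgce-201 led with 55.3% and 42.4%, and 53.8% and 53.9% in the second table.

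The small exon of Sgce was in 36.3% and 32.6% of the TPM of transcripts that span its place, and in 41.9% and 41.8% by the second table. The late exon had 35 bases in 62.6% and 47.7% of the TPM that spans it, and in 62.8% and 62.0% by the second table. A longer, 71-base version took 5.23% and 16.0%, or 7.40% and 5.57% by the second table, and the rest skipped it. Transcripts other than Sgce-201 shifted between tables: Sgce-202 (5.31% and 21.3%) and Sgce-205 (22.0% and 11.0%) were at 0.00% in the second, which placed 10.8% and 26.1% on Sgce-207. Of 8 partner genes of the sarcoglycan and dystroglycan complex, 6 were detected. Dag1, which encodes dystroglycan (42.9 and 41.4 TPM), Dmd, which encodes dystrophin (27.7 and 26.7), and Sgcb (22.7 and 21.3) were the highest. An interval that left out 0 was found for 0 of the 6 with enough counts, beside 25.7% of genes averaging 100 or more counts.

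Grb10 encodes an adaptor that binds the insulin and IGF1 receptors and restrains their signalling. It had 15.3 TPM in replicate 1 and 12.9 in replicate 2, from 1053 and 1073 counts. The libraries were 1.18-fold apart on TPM + 0.5, with replicate 1 the higher, and the scaled count interval held 0 (-0.22 to 0.03). The gene's effective length, an average over its transcripts, was 3411 bases in replicate 1 and 3697 in replicate 2, so part of the TPM difference lies in how reads were shared among transcripts of different length.

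By start, the distal first exon of Grb10 (chromosome 11, 12037192 to 12037401), downstream of the CpG-dense stretch shown above, led with 48.2% and 48.3% of the TPM assigned to the 3 starts, and 61.8% and 60.5% in the second table. The middle first exon (12027903 to 12027971) took 18.3% and 25.1%, and 11.7% and 16.1% in the second table. The proximal starts took 33.5% and 26.6%, and 26.6% and 23.4%. Both tables thus put the distal start first in both libraries, but the proximal share came from short transcripts: Grb10-207 rested on 20.96 and 14.4 counts, and Grb10-209 on 30.5 and 26.6. The full-length transcripts from the distal and middle starts, Grb10-201 and Grb10-203, held 712 and 676, and 253 and 331 counts. The stated starts are those of the annotation, and which of them is the neuronal one was not analysed here.

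Igf2r encodes a receptor that carries IGF2 to lysosomes for breakdown and also sorts lysosomal enzymes. It had 12.9 and 12.5 TPM, from 2155 and 2384 counts, and an interval that held 0 (-0.06 to 0.11), the smallest SD of the 10 genes relative to its mean. The single coding transcript, Igf2r-201 (8887 bases), took 94.3% and 96.3%, and 90.8% and 94.5% in the second table. The short noncoding transcript Igf2r-203 took 5.68% and 3.69%, or 9.18% and 5.46% by the second table. Airn, the antisense RNA that silences the paternal Igf2r copy outside neurons, had 38 and 42 counts, or 1.93 and 2.16 TPM; its annotated exons share 0 bases with those of Igf2r.

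All 15 listed genes of the insulin and IGF pathway were detected, with Nedd4, a ubiquitin ligase that partners Grb10 (122 and 120 TPM), Igf2, the ligand bound by Igf2r (55.8 and 56.8), and Gigyf2, a Grb10-interacting protein (43.3 and 46.9), as the highest. Their intervals lay above 0 for 4 and below 0 for 4, against 11.0% and 10.6% of all genes tested. Most of the 15 are deeply counted, and 25.7% of genes averaging 100 or more counts had an interval that left out 0. Irs2, a docking protein of both receptors, was lower in replicate 2, at 39.7 and 28.8 TPM, with a scaled count difference of -0.42 (interval -0.48 to -0.36). Grb7, a relative of Grb10, had 1.62 and 1.03 TPM but 41 and 42 counts.

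Cdkn1c encodes p57, an inhibitor of cyclin-dependent kinases that restrains growth. It had 5.26 and 4.97 TPM, from 132 and 162 counts, the fewest of the 10 genes, and the widest interval (-0.17 to 0.51), which held 0. Replicate 2 was slightly the lower by TPM and the higher by counts. Cdkn1c-201 took 57.1% and 50.2%, and 49.3% and 46.0% in the second table. Cdkn1c-205, a shorter coding transcript, took 21.4% and 28.4%, or 18.7% and 20.3% by the second table. A transcript with a retained intron, Cdkn1c-204, took 15.0% and 0.00% in the first table but 32.0% and 33.7% in the second. Its shares rested on at most 6.35 counts in the first table and on 7.86 and 10.6 in the second. An antisense gene, Gm44732, whose exons share 625 bases with those of Cdkn1c, had 0 and 3 counts.

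Of 7 listed cell cycle inhibitors and targets, all were detected. Ccnd2 (41.6 and 42.7 TPM), Cdk4 (35.01 and 37.7) and Cdkn1a (25.2 and 23.7) were the highest, and 0 were over 25% apart.

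Plagl1, also called Zac1, encodes a zinc finger transcription factor that restrains growth and regulates other imprinted genes. It had 10.9 TPM in replicate 1 and 6.45 in replicate 2, which made replicate 1 1.64-fold the higher on TPM + 0.5 and the log2 difference, -0.72, the largest of the 10 genes. Its counts were 514 and 533, and the scaled count difference was -0.07, with an interval that held 0 (-0.25 to 0.11). Its effective length was 2339 bases in replicate 1 and 3669 in replicate 2, a log2 difference of 0.65, so nearly all of the TPM difference was a difference in estimated length.

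The shorter length in replicate 1 went with more TPM on short Plagl1 transcripts. The full-length coding transcript Plagl1-202 (5260 bases) was level, at 4.44 and 4.23 TPM, from 461 and 492 counts, and at 7.48 and 6.87 TPM in the second table. The 20 annotated transcripts under 1000 bases held 6.35 and 1.65 TPM, 58.0% and 25.6% of the gene, on 41.6 and 17.6 counts, or 8.09% and 3.31% of its counts. In the second table they held 49.1% and 32.5% of the TPM. Of these, Plagl1-214 took 10.7% and 11.5% on 8.82 and 6.29 counts, or 16.3% and 10.2% by the second table. Plagl1-204 took 15.0% and 6.44% in the second table and 1.46% and 0.00% in the first. Plagl1-223 and Plagl1-220, which fall outside the naming rule and were picked after their values were seen, had 8.39 and 8.95 counts in replicate 1 and 0 in replicate 2, yet 16.1% and 15.4% of the TPM of replicate 1. The difference in Plagl1 thus rests on few reads, those on short transcripts. The PLAG family relatives Plag1 (1.78 and 2.10 TPM) and Plagl2 (2.41 and 2.31) were both lower than Plagl1, and their intervals held 0.

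Of 28 listed genes in the same imprinted domains that were in the table, 14 were detected; 1 more, Peg3os, was not matched. Cd81 (169 and 178 TPM), Ppp1r9a (86.2 and 83.6) and Cobl (57.8 and 54.8) were the highest, and the median of the 28 was 0.91 TPM. Of 18 with enough counts, 2 had an interval above 0 and 3 below, beside 11.0% and 10.6% of all genes tested. Kcnq1ot1, the long noncoding RNA that silences Cdkn1c on the paternal chromosome, had 2.84 and 2.17 TPM from 5321 and 4548 counts, lower in replicate 2 by a scaled count difference of -0.35 (interval -0.41 to -0.29).

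Among 18 other imprinted genes, 15 were detected. Gnas, which encodes a G protein subunit (764 and 762 TPM), Peg13, a noncoding RNA (72.9 and 76.3), and Mest (58.3 and 54.3) were the highest. The intervals of 6 lay above 0 and of 2 below, beside 11.0% and 10.6% of all genes tested. Among genes averaging 100 or more counts, 25.7% had an interval that left out 0 in either direction. Commd1 was over 25% apart by TPM, at 15.3 and 20.6, but its interval held 0 (-0.01 to 0.59). Of the 10 genes described here, Nnat and Peg3 exceeded all of these other imprinted genes but Gnas and, in the domain list, Cd81.

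Of 5 listed genes that maintain imprints, 4 were detected, led by Trim28, a corepressor (93.9 and 91.6 TPM), and its zinc finger partner Zfp445 (73.8 and 65.8), with Dnmt1, the maintenance methyltransferase, at 16.9 and 18.7. Zfp57, the other zinc finger partner, was at 10.1 and 7.70 TPM, with a scaled count difference of -0.25 (interval -0.48 to -0.01). Among 5 calcium pumps and their regulators, listed for the likeness of neuronatin to phospholamban, Atp2a2 was at 331 and 327 TPM and Atp2a3 at 2.57 and 2.70. Pln, which encodes phospholamban, was at 0.95 and 1.38 TPM and over 25% apart by TPM, from 27 and 38 counts, and its interval held 0 (-0.38 to 1.14). The neuronatin message thus stood above that of phospholamban in both libraries.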

How the data were processed

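Gene tables deposited by the authors hold expected counts (estimates with decimals) and TPM; a pair of transcript tables per library hold expected or estimated counts, TPM and, in the first, the percent share of each transcript, per the file headers. The deposited credibility bounds of TPM are in the gene table. The first set has the column names of RSEM and the second those of kallisto, per the file headers; their versions, and the aligner, were not given in the sources used here. The build is mm10 with GENCODE M21, per the deposited list of files, and strand-separated signal files in that list show stranded libraries.

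The members and gene lists were chosen with earlier results of these data known. Spike-ins and rows that name no gene, 2.3e-05% and 3.3e-05% of counts, were left out. Expected counts were rounded for TMM (edgeR 4.0.16) and size factors (DESeq2 1.42.0). Each difference by TPM is the log2 ratio of replicate 2 to replicate 1 after adding 0.5 to TPM, so changes of low genes are understated. Each scaled count difference is the log2 ratio of TMM-scaled rounded counts, with nothing added. Counting intervals are exact binomial 95% intervals of TMM-scaled counts. They cover counting error only and leave out error in how reads were shared among genes. Reads lacked molecular identifiers, so copies of the same molecule could be counted as separate reads. With 1 group of 2 libraries no p-value was computed. Shares are of the gene's TPM. All 10 members are named, transcripts with at least 5% in both libraries in either table, and of each other gene list the 3 highest genes and any over 25% apart (the larger over the smaller) with a mean of at least 1 TPM; cell type markers are given as sums. Genes that overlap a member are named for their position. Gene names were matched by symbol in M21. The log2 ratio of counts and its interval were tested on simulated counts that varied by counting error only. TPM, transcript shares, TMM scaling and pair ratios were not tested in this way. Python 3.11.15, pandas 2.3.3, scipy 1.17.1 and R 4.3.3 were used.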

Additional observations from a re-analysis of the deposited data

How the results depend on the processing

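All 10 genes remained detected in the second transcript table and by posterior mean TPM. Detection in either library alone and at 0.5 TPM follows from the definition, so those settings could not have changed it. The count over 25% apart, 2 as reported, was 1 by TMM-scaled counts, 1 with DESeq2 size factors, 1 at a threshold of 1.5-fold and 4 with spike-in scaling. With spike-in scaling the median log2 difference of all genes tested was itself 0.155. Relative to that median, 1 of the 10 was over 25% apart. Plagl1 changed sign with spike-in scaling, to 0.076, and relative to that median it was at -0.08. The median level of the 10 genes, 14.5 TPM, was 21.5 in the second table. The count with an interval that left out 0, 5 as reported, was 7 with spike-in scaling. That scaling also placed the median of all genes tested at 0.155. The share of all genes with such an interval under it is not given here, so the 7 have no background. The 3 pair ratios moved by no more than their SD in the second table and by posterior mean TPM. Leaving out either of 2 libraries cannot move a mean by more than its SD, so that setting was no check. Of 70 differences of single genes under the alternatives, 12 had the opposite sign to the reported value, in Peg3, Grb10, Igf2r, Cdkn1c and Plagl1. Of these 5 genes only Plagl1 was reported as over 25% apart. Usp29, Nnat, Blcap, Peg10 and Sgce kept their direction in all 8 settings. No paired analysis was possible because the labels give 1 group. With 2 libraries the spread between animals is poorly known, and shares of transcripts with few counts are the least certain values.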

Other observations

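The deposited gene table gives a credibility interval for each TPM. Plagl1 was the 1 member of 10 whose TPM lay outside its own interval, and it did so in both libraries: 10.9 TPM with an interval of 11.5 to 16.8 in replicate 1, and 6.45 with 7.95 to 11.6 in replicate 2. Its posterior mean TPM was 14.2 and 9.74. Over the 18136 genes averaging 10 or more expected counts, the TPM lay outside the interval for 5.05% in replicate 1 and 4.59% in replicate 2.

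Transcripts under 1000 bases also held much of the TPM of Cdkn1c, 42.9% and 28.4% from 17.4% and 11.2% of its counts. For Grb10 the values were 32.3% and 25.9% from 4.89% and 3.82%, and for Blcap 24.1% and 20.8% from 4.24% and 3.51%. In Nnat such transcripts held 5.61% and 4.31% by the first table, but 29.95% and 29.1% by the second. In Igf2r they held 5.68% and 3.69% from 0.48% and 0.31%, and Peg10 has 0 annotated transcripts of that length.

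The same transcript led in both tables and both libraries for 7 of the 10 genes, the exceptions being Nnat, Blcap and Peg10. The 10 genes have 87 annotated transcripts, of which 33 reached a 5% share in both libraries in at least 1 table.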
